A study of Bos taurus with 12 samples.

Results

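Enzymatic methylation sequencing (EM-seq) was applied to sperm DNA from 12 bulls' samples. The method converts unmethylated cytosines with enzymes instead of bisulfite. By the labels 6 samples had low daughter fertility and 6 had high daughter fertility, all sperm of male Bos taurus, with no breed, age or treatment given. The loci described here are the CpG sites and the 500 bp windows (tiles) on autosomes that the authors classed as downstream of their closest annotated gene feature, leaving out loci whose closest feature was a CpG island. They number 1180 of 17730 listed sites and 577 of 7290 listed tiles, on 23 chromosomes in each table. Both tables hold the authors' own comparison of the groups: for each locus a methylation difference in percentage points, a p-value and a q-value. The direction of subtraction between the groups is given by neither headers nor labels, so a negative or positive sign below is the sign as listed and stands for neither fertility group. No values of single bulls or read counts were used here. The depth is therefore unknown, no spread between samples stands beside a value, and every q below is the authors'. The question behind the comparison, per the series design, is which features of the bull sperm methylome go with the fertility of daughters.

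DNA methylation in mammals sits mainly on cytosines of CpG dinucleotides, where DNA methyltransferases set it and copy it at cell division. Sperm DNA is methylated over most of the genome, with CpG islands and many promoters left unmethylated, and this pattern is laid down in the germ line. The stretch beyond a gene's last exon holds the sites where transcripts are cleaved and transcription ends.

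Downstream in these tables means downstream of the closest feature, not always of the gene. By the authors' deposited table, the listed distance of the sites ran from 0 to 9999 bp with a median of 3415 bp, and for the tiles from 0 to 9950 bp with a median of 2030 bp. Loci farther out fell in the distal class, whose nearest members lay at 10002 bp for sites and 10025 bp for tiles. The values at that limit were small on either side, with -0.88 points at the farthest downstream site and -2.13 points at the nearest distal site in the authors' deposited table. Their counterparts among tiles stood at -0.65 and -0.72 points. A 5′ untranslated region (UTR) is followed by coding sequence in its own transcript, so the 69 sites and 66 tiles placed downstream of one need not lie beyond a gene's end. The features listed in both tables show this for some loci, since another feature of the same gene or transcript lay still farther downstream for 33 sites and 40 tiles. These counts are lower limits, because introns were left out of them and a gene's features appear only when a listed locus was closest to them.

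Glycine-N-acyltransferase (GLYAT, ENSBTAG00000038323), a mitochondrial enzyme that joins acyl groups to glycine, is one such gene. Of its 13 downstream sites 7 lay short of another listed feature of the gene, among them all 6 placed downstream of its 5′ UTR.

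Tile distances had a further feature. For all 577 tiles the listed distance was that of the tile's first base, so on a minus-strand gene the nearer edge was closer than listed. In total 99 tiles overlapped the feature they were said to follow, 98 of them at minus-strand features. Of the 66 tiles behind a 5′ UTR, 40 overlapped it. The label of loci just downstream of genes therefore holds for part of these loci, and they are called downstream loci below in the sense of the authors' class.

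The feature types also followed the strand of the gene. Of the 166 sites whose closest feature was a 3′ UTR, 163 (98.2%) belonged to plus-strand genes, while 343 of the 451 sites behind an exon (76.1%) belonged to minus-strand ones. The tiles showed the same split, with all 49 behind a 3′ UTR on the plus strand and 190 of 266 behind an exon (71.4%) on the minus strand. The last exon and the 3′ UTR of a transcript end at the same base, so either could be named as closest, and the sources used here do not say how the authors chose between them. Over all types the strands were balanced among sites, at 587 plus and 593 minus, but less so among tiles, at 238 plus and 339 minus. The values by feature type given below are for this reason not a comparison of 2 kinds of gene end.

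**Figure D1:**
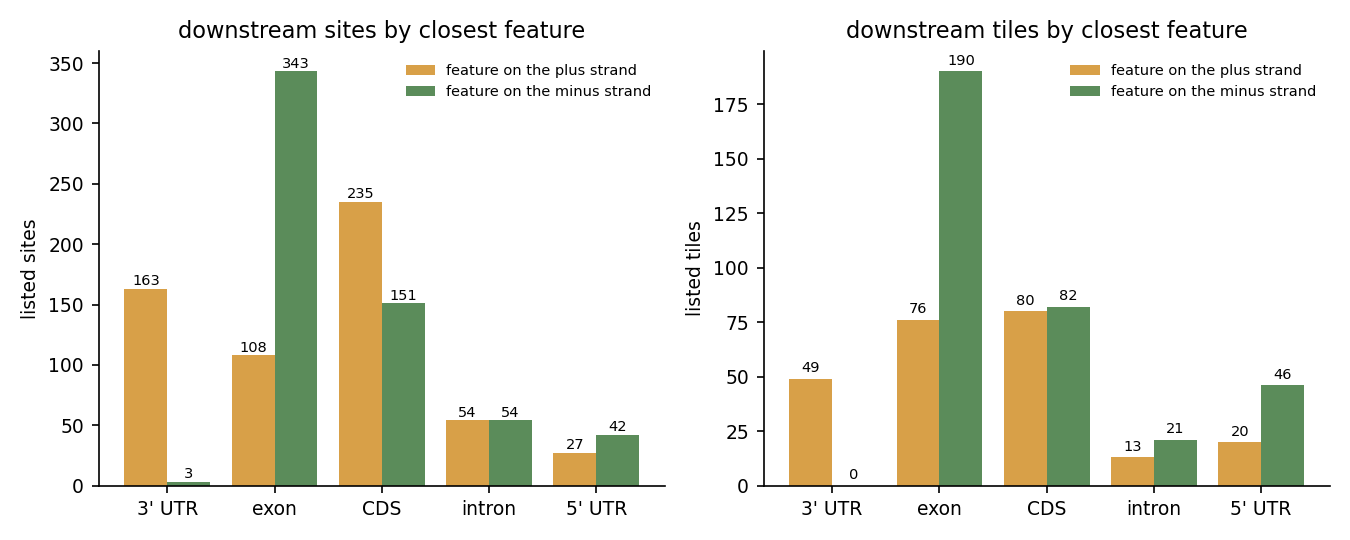
Number of listed downstream sites (left) and tiles (right), on the y axis, by closest feature type on the x axis and by the strand of that feature. Sites behind a 3′ UTR were nearly all at plus-strand features (163 of 166) and sites behind an exon mostly at minus-strand features (343 of 451).

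Single CpG sites downstream of genes were called at about the rate of other autosomal sites, with both signs among them. A locus was called when the authors' q was below 0.05 and the absolute difference at least 10 points. Of the 1180 sites, 47 (3.98%) were called in the authors' deposited table, against 4.48% of all listed autosomal sites and 5.94% of all listed sites. Of the 47, 29 were negative and 18 positive, where 3.07% of all listed autosomal sites were called negative and 1.41% positive (4.78% and 1.16% of all listed sites). The called sites followed 34 features on 16 chromosomes, and 19 of them differed by 20 points or more, 3 by 30 points or more. Their median absolute difference was 18.7 points. At q below 0.05 alone 75 sites (6.36%) passed, against 6.06% of listed autosomal sites and 8.11% of all listed sites. Of these 75, 28 differed by less than 10 points, and 87 other sites differed by at least 10 points with q of 0.05 or more.

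Most downstream sites had small differences. The median over all 1180 was -0.55 points, with quartiles at -3.69 and 2.04 points, in the authors' deposited table. It stood at -0.28 points for sites within 1 kb and at -0.19 points with 1 median per feature. The other autosomal sites had a median of -0.72 points with quartiles at -3.75 and 1.80 points. Among downstream sites with a difference other than 0, 56.1% were negative, against 58.1% of the other autosomal sites. The promoter class, the mirror position on the 5′ side of a feature, had 87 of 1121 sites called (7.76%) and a median of -1.03 points. Sites within a gene feature had 106 of 3112 called (3.41%) and sites distal from one 197 of 4440 (4.44%). No test of these differences between classes was made, since neighbouring sites share samples and reads and no values of single bulls were at hand.

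Tiles gave few large differences, and the called ones were all negative. Of the 577 downstream tiles, 10 (1.73%) were called in the authors' deposited table, against 2.34% of all listed autosomal tiles and 2.78% of all listed tiles. All 10 were negative, as were 143 of the 154 called tiles on autosomes, which makes 2.17% of listed autosomal tiles negative calls and 0.167% positive ones (2.63% and 0.151% of all listed tiles). The 10 tiles overlap each other and come from 3 features, all on the minus strand, so they stand for 3 regions. Of the 10, 7 lay on chromosome 15, and without that chromosome 3 were called. At q below 0.05 alone, 392 downstream tiles (67.9%) passed, against 71% of all listed autosomal tiles and 71.8% of all listed tiles. Of these 392, 41 had an unadjusted p of 0.05 or more, as had 382 of the 4674 listed autosomal tiles with q below 0.05. The authors' q lay below p for 64.5% of the downstream tiles and for 68.7% of all listed autosomal tiles. Small q-values were thus common at small differences, and the median over all 577 tiles was -0.60 points with quartiles at -2.72 and 0.34 points in the authors' deposited table. The other autosomal tiles had a median of -0.87 points with quartiles at -2.93 and 0.16 points. Of the downstream tiles 66% were negative, against 70.7% of the other autosomal tiles.

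**Figure D2:**
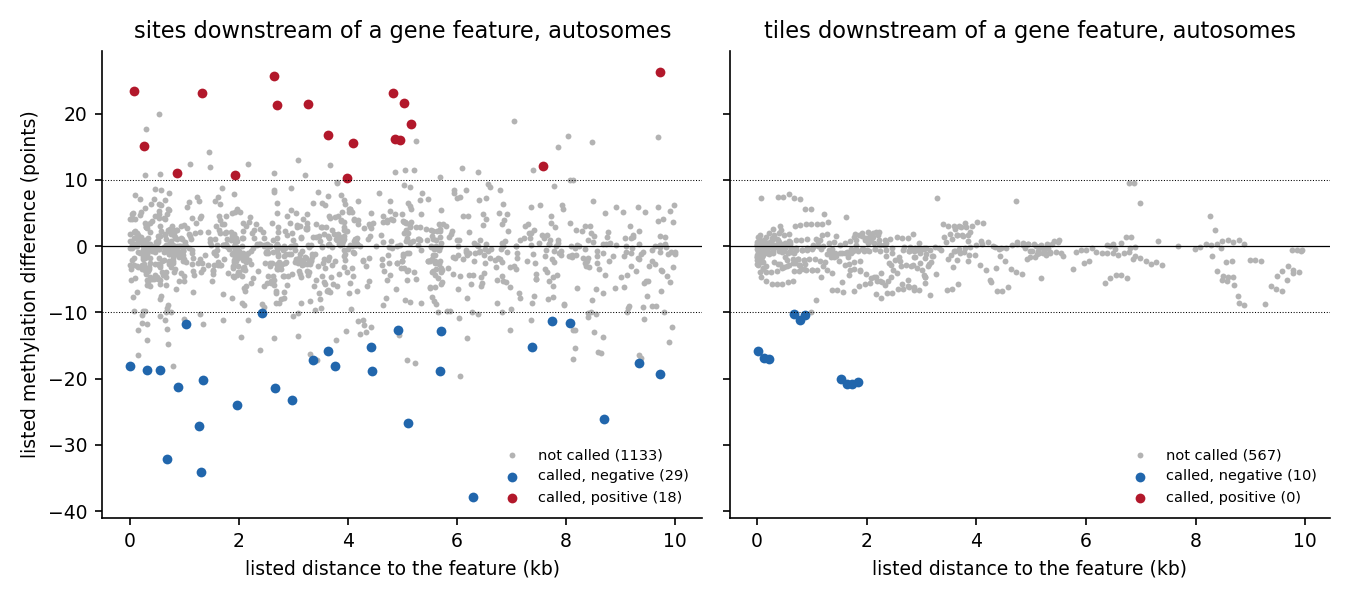
Listed methylation difference in percentage points (y axis) against listed distance to the closest feature in kb (x axis) for the 1180 downstream sites (left) and 577 downstream tiles (right). Called loci are coloured by sign and dotted lines mark 10 points; called sites lie at all distances, while the 10 called tiles lie within 1834 bp.

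Called sites were spread over the whole distance range. Within 1 kb of the feature 8 of 263 sites (3.04%) were called, between 1 and 2 kb 7 of 125 (5.6%), between 2 and 5 kb 18 of 384 (4.69%) and between 5 and 10 kb 14 of 408 (3.43%). The median distance was 3644 bp for called sites and 3415 bp for all downstream sites in the authors' deposited table. The signs were mixed in every interval, with 5 negative and 3 positive calls in the nearest and 10 negative and 4 positive in the farthest. The spread of differences was narrower close to the feature. Quartiles of the sites within 1 kb stood at -2.97 and 1.63 points, and those beyond 5 kb at -4.42 and 2.03 points in the authors' deposited table.

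For tiles the nearest interval was the one closest to 0. The median was -0.16 points for the 201 tiles within 1 kb, -0.97 for the 84 between 1 and 2 kb, -0.68 for the 180 between 2 and 5 kb and -0.97 for the 112 beyond 5 kb, in the authors' deposited table. Of the 201 nearest tiles 57 followed a 5′ UTR, and those had a median of 0.15 points. The share of negative tiles went up with each interval, at 60.7, 66.7, 67.2 and 73.2%, where 70.7% of the other autosomal tiles were negative. The 112 tiles beyond 5 kb followed only 23 features, and tiles of a feature overlap, so this rise was not tested. All called tiles lay in the 2 nearest intervals, with 6 within 1 kb and 4 between 1 and 2 kb.

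By closest feature, sites behind coding sequence (CDS) held the most calls. Of 386 such sites, 21 (5.44%) were called in the authors' deposited table, 16 of them negative. The share was 3.98% over all downstream sites and 4.48% over all listed autosomal sites. The gene ENSBTAG00000052622 alone, with 14 sites, held 6 of the 21 calls behind CDS. Sites behind a 3′ UTR had 8 of 166 called (4.82%), split evenly by sign, and sites behind an exon 12 of 451 (2.66%), of which 7 were positive. Since exon and 3′ UTR divided by strand, they were also counted together for loci with a gene listed, which gave 12 of 337 sites called (3.56%), 6 of each sign. Behind an intron 5 of 108 sites (4.63%) were called, but 107 of those 108 introns were listed with a start above their end, so their bounds are uncertain. Behind a 5′ UTR 1 of 69 sites (1.45%) was called. Medians were close to 0 for every type and lowest behind exons, at -0.87 points, and highest behind 5′ UTRs, at 0.01 points.

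**Figure D3:**
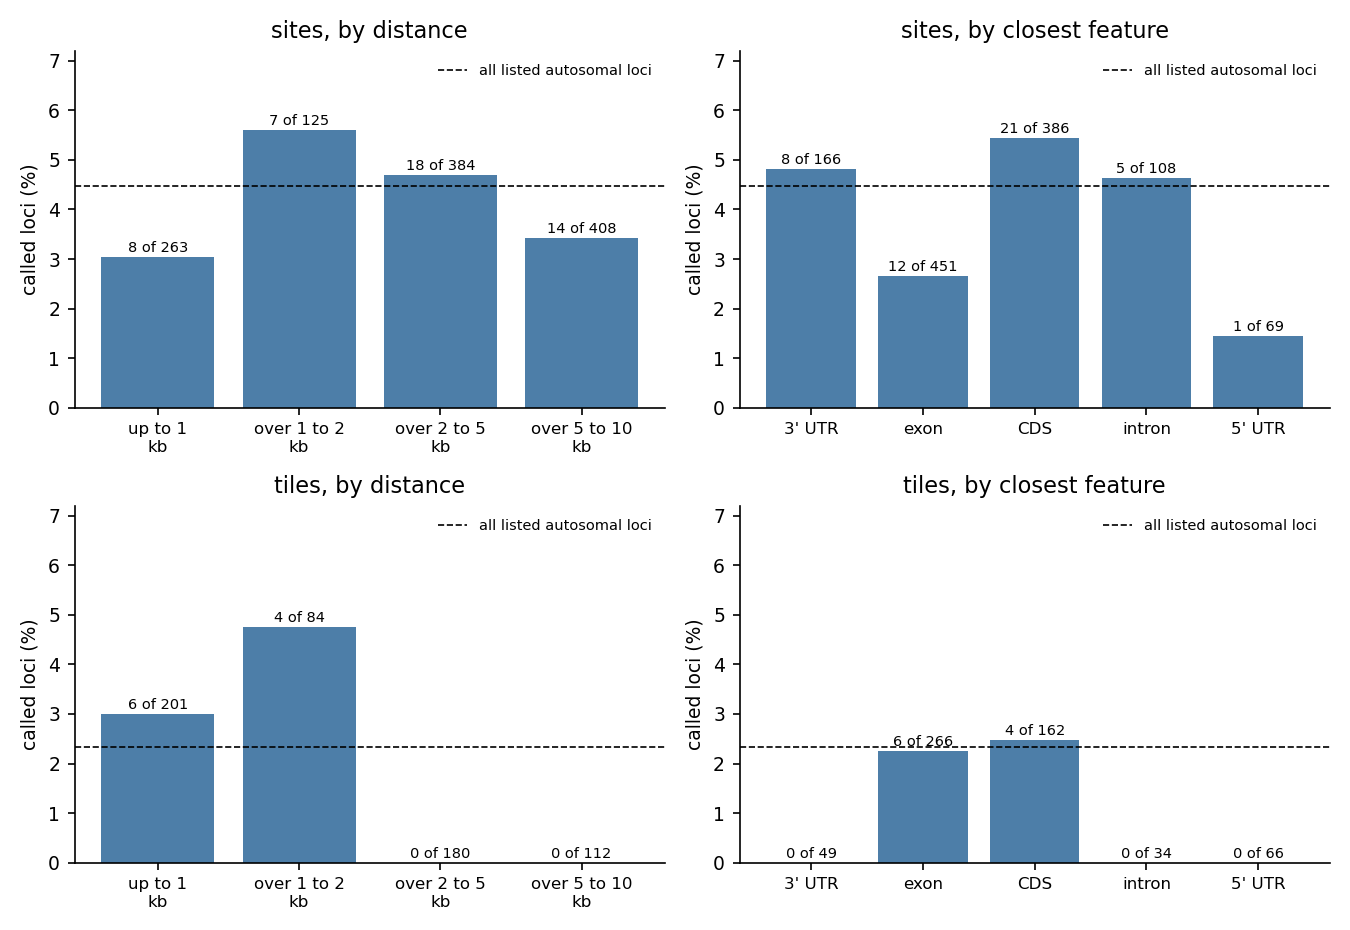
Percentage of downstream sites (top) and tiles (bottom) called (q below 0.05, absolute difference of 10 points or more), by listed distance (left) and by closest feature type (right). Bars carry the number called of the number listed, and the dashed line is the share over all listed autosomal loci (4.48% of sites, 2.34% of tiles).

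Among tiles the medians of the types lay farther apart. In the authors' deposited table the 34 tiles behind an intron had a median of -2.95 points and the 162 behind CDS -1.62 points, while the 49 behind a 3′ UTR stood at 0.21 and the 66 behind a 5′ UTR at 0.08 points. The intron tiles came from 5 genes and the 3′ UTR tiles from 12, and overlapping tiles of a gene share reads. ENSBTAG00000006648 and ENSBTAG00000009197 gave 13 intron tiles each, with medians of -4.03 and -3.37 points. For 33 of the 34 intron tiles the intron was listed with a start above its end, so its bounds are uncertain. T cell receptor beta variable 5-1 gave 18 of the 49 tiles behind a 3′ UTR, with a median of 1.86 points. Within CDS, the 82 minus-strand tiles had a median of -3.93 points and the 80 plus-strand tiles -0.56 points. The minus-strand CDS tiles followed only 12 genes, among them olfactory receptor 4C6-like with all 4 of the called CDS tiles. ENSBTAG00000048516 gave 19 of the 82, all negative with a median of -5.54 points, and serpin B4 gave 7, all positive.

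Calls were also counted by whether the closest feature had a gene name. Of the 515 sites at 336 named genes 17 were called (3.3%), of the 385 sites at 104 genes without a name 22 (5.71%), and of the 280 sites at 126 transcripts with no gene listed 8 (2.86%). All 280 followed exons with no coding phase, and these exons had a median length of 114.5 bp in the authors' deposited table. Over all downstream sites the called share was 3.98%, and over all listed autosomal sites 4.48%. Of the 22 calls at genes without a name, 6 lay behind 1 gene, ENSBTAG00000052622.

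The largest negative difference lay behind fatty acid binding protein 2 (FABP2, ENSBTAG00000017045), the intestinal carrier of long-chain fatty acids. In the authors' deposited table it measured -37.8 points (q = 4.01e-13) at position 5963827 of chromosome 6, 6287 bp downstream of exon 4. The 13 downstream sites of this gene had a median of 0.03 points, and the highest of them, 1330 bp from the same exon, was also called, at 23.2 points (q = 0.00369) by the authors' deposited table. Of the other sites, those at 339 and 7417 bp had q below 0.05 with differences of -5.43 and -7.55 points. The 2 called sites of FABP2 thus have opposite signs, and the 4 listed sites within 500 bp of the lowest one ranged from -4.19 to 0.97 points. The only listed downstream tile, 6113 bp out, stood at -0.28 points (q = 0.0883) by the authors' deposited table and does not hold either called site.

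Glutamate ionotropic receptor kainate type subunit 1 (ENSBTAG00000034854), part of a glutamate-gated ion channel, had the second lowest value among downstream sites. The authors' deposited table gave -34.1 points (q = 1.68e-10) at position 6579099 of chromosome 1, 1304 bp beyond the 3′ UTR. A site within 500 bp of it stood at 0.19 points.

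Olfactory receptor genes, which encode odorant receptors and are often a single coding exon, had calls of both signs. A site 1279 bp behind the CDS of olfactory receptor 7A17 (ENSBTAG00000049396) was listed at -27.1 points (q = 0.00352) by the authors' deposited table, at position 8784853 of chromosome 7. Another gene, olfactory receptor 7A17-like (ENSBTAG00000054146), had -18.2 points (q = 0.0224) at 3758 bp by the authors' deposited table. Olfactory receptor 5D13 (ENSBTAG00000047333) on chromosome 20 went the other way, with 18.4 points (q = 0.0402) at 5166 bp by the authors' deposited table. In all, 33 downstream sites lay behind 22 olfactory receptor genes; 3 were called (9.09%, against 3.98% of all downstream sites), 2 negative and 1 positive, and the median of the 33 was -0.51 points. With 3 calls this share is no finding about the family.

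The other negative calls at named genes were single sites. Phospholipase D family member 5 (ENSBTAG00000033056) had -23.9 points (q = 1.14e-05) at 1969 bp beyond its 3′ UTR on chromosome 16, and gap junction protein gamma 2 (ENSBTAG00000014916), a connexin of myelinating glia, -20.3 points (q = 0.000148) at 1346 bp behind an exon, both in the authors' deposited table. The authors' deposited table put UL16-binding protein 3-like (ENSBTAG00000036061), of a family of ligands read by natural killer cells, at -18.7 points (q = 0.0286), 547 bp beyond its 3′ UTR. Tripartite motif-containing protein 64 (ENSBTAG00000049646) had 26 downstream sites with a median of -2.40 points, and the called one, 9342 bp from the CDS, was the lowest at -17.6 points (q = 0.0149) by the authors' deposited table. Smaller calls were growth factor receptor bound protein 2 (ENSBTAG00000004736), an adaptor between receptor tyrosine kinases and RAS, at -11.5 points, and semaphorin 7A (ENSBTAG00000011446), a membrane-anchored guidance protein, at -11.3 points, in the authors' deposited table. Of the 8 semaphorin 7A sites 6 were negative, with a median of -3.14 points.

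Positive calls at named genes were led by pleckstrin homology domain containing S1 (ENSBTAG00000011487). It stood at 26.3 points (q = 0.00486) at position 34250150 of chromosome 26, 9719 bp beyond the 3′ UTR and so near the outer limit of the class, in the authors' deposited table. F-box and leucine rich repeat protein 17 (FBXL17, ENSBTAG00000054662), a substrate receptor of a ubiquitin ligase, had 23.0 points (q = 0.0159) at 4835 bp behind exon 9 by the authors' deposited table. WC1 (BoWC1.1, ENSBTAG00000049861), a scavenger-type receptor of bovine gamma-delta T cells, had 21.6 points (q = 0.00674) at 5021 bp behind an intron by the authors' deposited table. Aminoadipate aminotransferase (ENSBTAG00000010326), an enzyme of lysine and kynurenine breakdown, had 21.4 points (q = 0.0375) at 3269 bp behind the CDS by the authors' deposited table. The trafficking from ER to golgi regulator (TFG, ENSBTAG00000016363), a protein of endoplasmic reticulum exit sites, had 15.1 points (q = 0.0212) at 270 bp behind a 5′ UTR by the authors' deposited table. The TFG site is the only call behind a 5′ UTR, and a listed site within 500 bp of it stood at 0.94 points.

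Runs of called sites were found behind a few features without a functional name. In total 6 features, FABP2 among them, held 2 or more called sites, 19 of the 47 between them. Behind the CDS of ENSBTAG00000052622 on chromosome 14, 12 of 14 sites were negative, with a median of -8.55 points, and 6 were called, 5 negative and 1 positive. In the authors' deposited table its called sites lay 317, 3643, 3644, 4427, 4441 and 4916 bp from the CDS. The sites at 3643 and 3644 bp are the strands of a single CpG, at positions 13746083 and 13746082, and they were called with opposite signs, -15.8 points (q = 0.0217) and 16.7 points (q = 0.0352) by the authors' deposited table. The lowest of the 14 stood at -18.9 points (q = 0.0085), and its called neighbour 14 bp away, at 4427 bp, at -15.2 points (q = 0.013) by the authors' deposited table.

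A run of positive values lay behind ENSBTAG00000046161 near the start of chromosome 21. Its 46 sites beyond the 3′ UTR had a median of 3.55 points, 17 were negative, and the 3 called sites were all positive. The authors' deposited table gave these as 15.6 points (q = 0.0158) at 4090 bp, 16.2 points (q = 0.01) at 4872 bp and 16.0 points (q = 0.0158) at 4949 bp. The single listed tile over the last 2 of them stood at 6.86 points (q = 2.05e-06) by the authors' deposited table. All 3 called sites were on the minus strand. The plus-strand partners listed for the last 2 stood at 11.2 points (q = 0.128) and 0.19 points (q = 0.821).

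Other features held calls of both signs. An exon of transcript ENSBTAT00000082925 on chromosome 21 was followed by 90 listed sites, the most of any feature, and 4 were called between -10.05 and 11.0 points, 1 negative and 3 positive, in the authors' deposited table. Behind the CDS of ENSBTAG00000017012 on chromosome 13, sites 13 bp apart on the same strand were called at 25.7 points (q = 0.00978) and -21.5 points (q = 0.0423) by the authors' deposited table, while the other 8 sites of this gene were not called. Both sites classed as downstream of ENSBTAG00000034090 on chromosome 18 were called and negative, at -18.1 points (q = 0.0456) and -26.7 points (q = 0.00709) by the authors' deposited table. The first, at position 60273266 and a listed distance of 0 bp, overlapped the intron named as its feature. The gene is on the minus strand, so the second site, at position 60286225, lay on the 5′ side of the first.

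**Figure D4:**
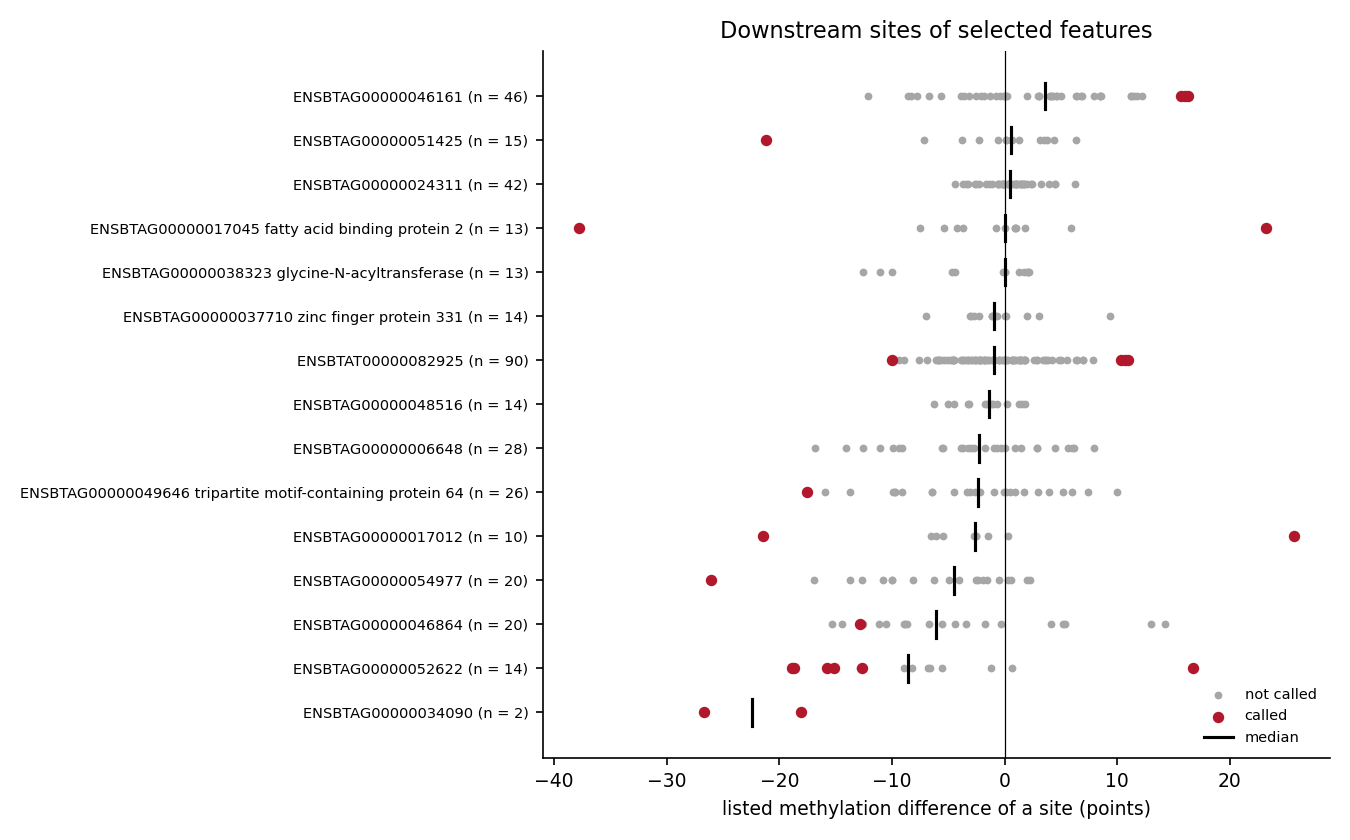
Listed methylation difference in percentage points (x axis) of every downstream site of the features with 2 or more called or 13 or more listed sites (y axis), with called sites in red and the median as a black bar. Medians run from below -20 points for the 2 sites of ENSBTAG00000034090 to 3.55 points for ENSBTAG00000046161, and called sites of both signs occur behind FABP2, ENSBTAG00000017012, ENSBTAG00000052622 and ENSBTAT00000082925.

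Most called sites had no called neighbour. Of the 47, 16 had no other listed site within 500 bp, and 11 had a called one there. Where any neighbour was listed, its value or the median of several had the sign of the called site in 21 of 31 cases. Only 7 of the 47 lay in a listed tile, and none of those tiles was called, although each of the 7 had at least 1 with q below 0.05. Both strands of a CpG were listed for 66 pairs of downstream sites, and the strands differed by a median of 3.70 points. Of the 5 pairs with a call, 1 was called on both strands, with opposite signs, at 16.7 and -15.8 points on chromosome 14. Its strands differed by 32.5 points, the most of any pair.

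The tiles with the largest differences lay behind olfactory receptor 4C6-like (OR4C185, ENSBTAG00000046387) on chromosome 15. In the authors' deposited table, overlapping tiles, 4 in number, from position 1092601 to 1093400 stood between -20.9 and -20.1 points, with q from 3e-46 to 2.2e-42. Their nearer edges were 1035 to 1335 bp from the CDS. No listed site lay in that stretch, so the site table gives no value beside it.

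Behind the last exon of GLYAT, also on chromosome 15, 3 overlapping tiles from position 82126801 to 82127500 were called. The authors' deposited table gave them between -11.2 and -10.2 points, with q from 2.85e-22 to 1.78e-18. The 2 tiles next to them, at -9.91 and -8.09 points, fell just short of 10 points. Of the 5 sites listed in the called stretch 4 were negative and 1 was at 0, with a median of -10.01 points and a lowest value of -12.6 points in the authors' deposited table, but none had q below 0.05 and the lowest q was 0.136. The site and tile tables come from the same samples and a tile holds its sites, so these are not independent values. Downstream of the 5′ UTR of GLYAT the 3 tiles stood between -1.02 and -0.52 points and the 6 sites had a median of 1.83 points. A related gene, glycine-N-acyltransferase like 2 (ENSBTAG00000030847), had 6 of 7 downstream sites negative with a median of -4.57 points and no call.

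The third called stretch lay on chromosome 21 at transcript ENSBTAT00000080508, where 3 tiles from position 33024301 to 33025000 stood between -17.0 and -15.9 points, with q from 2.42e-197 to 3.92e-157, in the authors' deposited table. All 3 tiles overlap the exon they were said to follow. The site table lists 16 sites in this stretch, all negative with a median of -18.6 points and 14 of them called, but none of the 16 was classed as downstream of a gene feature. The 6 sites that were classed as downstream of the same exon had a median of -1.19 points and no call in the authors' deposited table. Without the tiles that overlap their feature, an alternative chosen after seeing the data, 7 downstream tiles were called.

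Below 10 points, tile differences behind named genes were of either sign. In the authors' deposited table D-dopachrome tautomerase (DDT, ENSBTAG00000022027), a relative of macrophage migration inhibitory factor, had 3 tiles, all negative, the lowest at -6.67 points (q = 3.34e-15). Proteoglycan 3 (ENSBTAG00000002007), a protein of eosinophil granules, had 15 tiles, 14 of them negative, with a median of -2.29 and a lowest value of -5.98 points in the authors' deposited table. The only downstream site of this gene was positive, at 4.43 points, and did not have q below 0.05. Both genes named ubiquitin carboxyl-terminal hydrolase 17-like protein 6, of a family of deubiquitinating enzymes, had only negative tiles, 8 with a median of -3.57 points on chromosome 4 and 6 with a median of -2.78 points on chromosome 3. F-box protein 16 (ENSBTAG00000034626) had 7 of 8 tiles negative and a lowest value of -3.79 points in the authors' deposited table.

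Of the 113 tiles at named genes with q below 0.05, 65 were negative and 48 positive. T cell receptor beta variable 5-1 (ENSBTAG00000051786), a gene segment of the T cell antigen receptor, had 14 positive and 4 negative tiles, from -2.27 to 7.79 points, in the authors' deposited table. All 7 tiles behind serpin B4 (ENSBTAG00000052162), a protease inhibitor, were positive, between 2.11 and 7.21 points, and all had q below 0.05 in the authors' deposited table. Its 4 downstream sites lay within the tile of the highest value but were mixed, 2 negative and 2 positive. They ran from -1.83 to 2.79 points, and none had q below 0.05. A tile that overlaps the 5′ UTR of glycine-N-acyltransferase-like (ENSBTAG00000052095) stood at 7.21 points (q = 1.05e-09) by the authors' deposited table. Tiles with smaller positive values were placed downstream of the 5′ UTRs of replication initiator 1 (3.03 points), drosha ribonuclease III (2.02 points), which cuts primary microRNA transcripts, and coiled-coil-helix-coiled-coil-helix domain containing 8 (COA4, 2.02 points), in the authors' deposited table. The 2 tiles of COA4 overlapped its 5′ UTR and lay short of another listed feature of the gene.

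Gene families were searched by fixed words in the authors' gene names, which find only part of a family. Called genes described above whose names hold none of these words, among them FBXL17, WC1, UL16-binding protein 3-like, semaphorin 7A and growth factor receptor bound protein 2, are in no count below. Over all downstream sites 3.98% were called, and over all listed autosomal sites 4.48%. At such shares sets this small would hold few calls or none, so the site counts below are no findings about the families. Among 23 sites at 10 zinc finger genes none was called, and 1 passed q below 0.05, behind ENSBTAG00000037710, at -6.96 points (q = 0.0411) by the authors' deposited table. The 11 tiles behind the same gene had a median of 0.46 points and none passed. Of 8 sites at 7 channel and neurotransmitter receptor genes 1 was called, that of the kainate receptor subunit. Of the sites found by these words, none was called among 18 at 13 immune genes, 10 at 10 transporters, 8 at 4 extracellular matrix genes, 6 at 6 ubiquitin pathway genes, 5 at 3 chromatin genes or 3 at 2 cytoskeleton genes, and none of these had q below 0.05. Of 10 sites at ribosomal and small nuclear genes, 1 had q below 0.05, behind ribosomal L1 domain containing 1, at -8.54 points (q = 0.0426) by the authors' deposited table. Among tiles, all 17 behind 3 ubiquitin pathway genes were negative and 13 of them (76.5%) had q below 0.05, against 67.9% of all downstream tiles, and the tiles of a gene overlap. The 22 tiles behind 6 zinc finger genes had 4 with q below 0.05, all negative, the lowest at -2.17 points behind ENSBTAG00000027431 in the authors' deposited table. Methyltransferase like 15 (ENSBTAG00000003361), an RNA methyltransferase of mitochondria, had its lowest tile at -1.08 points, and cyclase associated actin cytoskeleton regulatory protein 1 (ENSBTAG00000013363) one at -1.58 points in the authors' deposited table. All 5 tiles of the former lay short of another listed feature of the gene, and the tile of the latter overlapped its 5′ UTR.

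Features measured in both tables were a small part of the whole. In total 32 features had downstream loci in both, which is 5.65% of the 566 features with sites and 26.4% of the 121 features with tiles, and 13 of them had a site and a tile with q below 0.05. None of the 13 has a functional name. They are not all separate places. ENSBTAG00000009197, ENSBTAG00000048894 and ENSBTAG00000054977 lay close together on chromosome 29. The loci of ENSBTAG00000024311 and ENSBTAT00000082925 lay next to each other on chromosome 21. ENSBTAG00000054977 on chromosome 29 had 20 sites with a median of -4.50 points and 5 tiles with a median of -5.28 points, its lowest site being -26.1 points (q = 0.000453) by the authors' deposited table. For ENSBTAG00000046864 on chromosome 18 the median was -6.12 points over 20 sites and -3.83 points over 5 tiles. ENSBTAG00000048516 on chromosome 21 had 14 sites with a median of -1.41 points and 19 tiles that were all negative, with a median of -5.54 points. At transcript ENSBTAT00000082925 the medians were -0.99 points over 90 sites and -0.30 points over 40 tiles, 33 of which had q below 0.05. Of the other features among the 13, ENSBTAG00000006648 and ENSBTAG00000009197 had tile medians of -4.03 and -3.37 points with site medians of -2.25 and -3.44 points. The medians of ENSBTAG00000051816 were -4.58 points over 6 tiles and -7.56 points over 3 sites, and those of ENSBTAG00000048894 -3.18 points over 3 tiles and -1.88 points over 6 sites. ENSBTAG00000024311 stayed near 0, at 0.15 points over 27 tiles and 0.50 points over 42 sites.

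**Figure D5:**
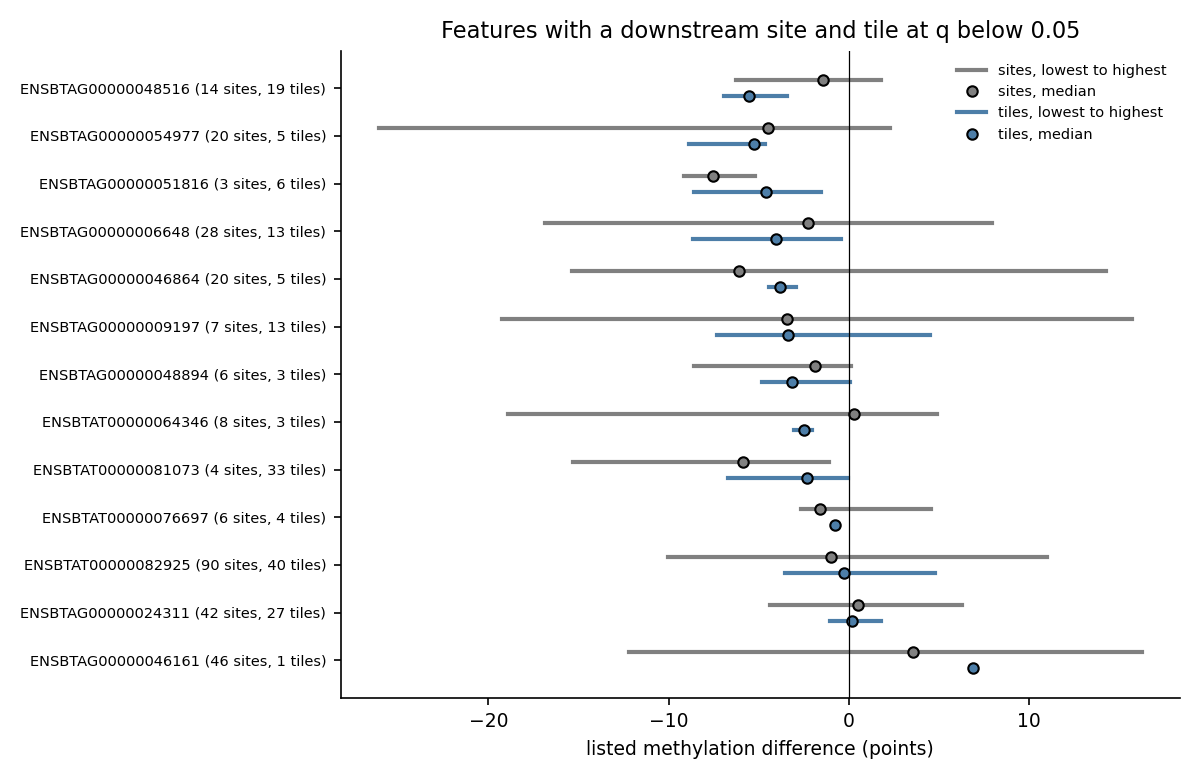
Listed methylation differences in percentage points (x axis) of the 13 features with a downstream site and a downstream tile at q below 0.05 (y axis), as the range from lowest to highest value (lines) and the median (points), for sites in grey and tiles in blue. Both tables come from the same samples. Site ranges are wide, as for ENSBTAG00000054977 with a lowest site of -26.1 points, and tile medians run between -5.54 and 6.86 points.

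A few features and chromosomes held much of the listing. Of the 566 features with sites, 434 had 1 downstream site, while the 35 features with 5 or more held 513 sites (43.5%), and for tiles 28 of 121 features held 411 tiles (71.2%). Chromosome 21 held 253 of the 1180 sites (21.4%) and 9 of the 47 calls. Its called share was 3.56%, against 3.98% over all downstream sites. On chromosome 14, 7 of 41 sites were called (17.1%), 6 of them behind ENSBTAG00000052622. Of the 35 features with 5 or more sites, 26 had a negative median and 8 a positive one, and 1 had only negative values. These features are not all separate places. Several with a negative median were neighbours on chromosome 29, with sites between positions 5541311 and 5780149, among them ENSBTAG00000049646, ENSBTAG00000054977 and ENSBTAG00000009197.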

How the data were processed

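EM-seq libraries were made from DNA extracted with a DNeasy kit, per the labels. Named in the submitters' processing notes are Trimmomatic, Bismark, methylKit and the build ARS-UCD1.2; versions and settings are not given in the sources used here. The authors deposited 2 tables of their comparison, with p-values, q-values, methylation differences in percentage points and the distance in bp to the closest feature, per the file headers. The sources do not say how their test treated spread among bulls.

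Loci on chromosomes 1 to 29, classed downstream, with a closest feature other than a CpG island were taken. Chromosomes 2, 3, 4, 12, 23 and 27 of the site table and 12, 23 and 27 of the tile table were not analysed here. Counts and medians were made with pandas 2.3.3 on Python 3.11.15, and the counting was tested on simulated data. No test between groups was possible without values per sample, so precision is unknown. Gene names are the authors'; symbols come from a RefSeq table of assembly ARS-UCD2.0, which matched 100 of 101 site genes and 23 of 23 tile genes with an NCBI number. No reference sequence was used.

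Named genes were the 12 largest called sites per sign, the 6 largest tiles with q below 0.05 per sign, all called tiles, genes with 2 or more called sites, features with q below 0.05 in both tables, and up to 3 per gene family. Members and lists were chosen with earlier results of these data known. Alternatives changed q, difference, distance, merging and chromosomes.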

Additional observations from a re-analysis of the deposited data

How the results depend on the processing

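Of 51 values recomputed under alternatives, 13 moved and 38 stayed within 1.5 times the count or within the interval of the value given, and none changed sign. The share of negative calls, 61.7% of sites (exact 95% binomial interval 46.4 to 75.5%) and 100% of tiles (69.2 to 100%), stayed within its interval under all alternatives. The intervals treat neighbouring loci as independent, although the 10 called tiles stand for 3 regions. The count of called sites, 47, became 18 at q below 0.01, 114 at an unadjusted p below 0.05, 71 at 5 points or more, 19 at 20 points or more and 8 within 1 kb. The count of called tiles, 10, became 79 at 5 points or more, 4 at 20 points or more, 6 within 1 kb, 3 merged over 1 kb, 3 with 1 tile per feature and 3 without chromosome 15. The median of tiles, -0.60 points, moved to -0.16 within 1 kb and to -0.19 with 1 median per feature. The median of sites, -0.55 points, stayed within its interval of -0.89 to -0.19, which also treats loci as independent. It was likewise nearer 0 at -0.28 within 1 kb and -0.19 with 1 median per feature. At -0.1922 the median per feature lay only just inside the bound of -0.1918. These changes in counts and medians come with fewer or more loci by construction. All alternatives reuse the same listed loci and samples, so staying within an interval is no independent support. Leaving out 5′ UTR and intron features and loci short of another listed feature, chosen after seeing the data, gave 41 called sites and 10 called tiles. No paired analysis was possible because no values per sample were analysed, and for that reason no sample was left out in turn and no coverage minimum was changed. Coverage behind each value is unknown, which limits all of them.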

Other observations

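Some features with many tiles and no functional name had small tile differences and no called tile. All 33 tiles behind 2 exons of transcript ENSBTAT00000081073 on chromosome 14, 9 of them short of its second exon, were negative. They stood between -6.71 and -0.04 points with a median of -2.33 points, and 31 had q below 0.05 in the authors' deposited table. The 4 downstream sites of this transcript were also negative, with a median of -5.87 points. Of these sites 1 was called, at -15.3 points (q = 0.000683) by the authors' deposited table. All 10 tiles behind the CDS of ENSBTAG00000023249 on chromosome 25 were negative, between -7.78 and -4.26 points in the authors' deposited table. Transcript ENSBTAT00000077535, near the start of chromosome 9, had the most tiles of any feature, 68, but was mixed, with 43 negative and 25 positive tiles, of which 37 had q below 0.05, with a range from -5.35 to 3.64 points in the authors' deposited table. Of the 28 features with 5 or more tiles, 12 had only negative tiles and 1 only positive ones, and the tiles of a feature overlap.

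Among genes with 5 or more downstream sites and no call, lysozyme (ENSBTAG00000049929), an enzyme that cleaves bacterial cell walls, had 6 of 7 sites negative with a median of -7.03 points, and BPI fold containing family A, member 2A (ENSBTAG00000009144) had all 5 negative with a median of -2.96 points. These 2 genes were chosen after their values were seen, and no site of either had q below 0.05 in the authors' deposited table.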
